A study of Homo sapiens with 12 samples.

Results

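Retained-intron transcript models are annotated transcripts of a gene that keep sequence which its coding transcripts splice out. The members described here are the targets with the biotype retained_intron in the target name and a mean of at least 20 estimated counts over 12 libraries of HEK-293T cells. There were 2514 such models in 1899 genes, of 27239 retained-intron models and of 200401 transcript models in all. They were chosen by this mean count, so their abundance is a description. The closest model inside the limit was CCDC130-202 at 20.0003 counts and the closest outside was CLASP2-207 at 19.9951. The 2514 models held 89.0% of all counts on retained-intron models, and each was followed as its share of the estimated counts of its own gene.

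HEK-293T cells derive from human embryonic kidney and express the large T antigen of SV40. Their renal transcription factor genes PAX2 (1.33 to 3.99 CPM, estimated counts scaled to a common library total) and LHX1 (3.96 to 7.05 CPM) were detected at low levels in every library. The cells held CIRTS, an RNA-targeting system assembled from human protein parts, in which a guide RNA brings an effector to a transcript. The effector was CIRTS-12, labelled nuclease, or CIRTS-3, labelled YTHDF2, a reader of N6-methyladenosine (m6A) that promotes RNA decay. The guide RNA was non-targeting (NT) or directed at SMARCA4, a chromatin-remodelling ATPase. Effector and guide name each of the 4 groups (nuclease-NT is the nuclease with the NT guide, YTHDF2-SMARCA4 is YTHDF2 with the SMARCA4 guide), and each had 3 libraries, which the series calls biological replicates. Nothing in the labels says how the cultures were grown, transfected or batched, so each p-value covers the spread of these libraries alone, and effector and batch, if they coincide, cannot be told apart.

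Splicing removes introns while the RNA is being made, and short introns with a high GC content are the ones most often left in. Some RNAs with a retained or detained intron stay in the nucleus until they are spliced or degraded, as described for CLK1 and OGT. Others reach the cytoplasm, where a stop codon in the intron can send them to nonsense-mediated decay (NMD). In RNA from whole cells, a retained intron, an unfinished precursor RNA and a fragment of one cannot be told apart.

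In the GENCODE v29 annotation (GRCh38), 2484 of the 2514 models were matched by versioned identifier and length. Of these, 909 (36.6%) held at least 1 whole intron that a coding model of the gene splices out. Each distinct pair of splice sites was counted as 1 intron, so alternative sites of 1 intron count more than once. Counted this way, 557 models held 1 and 352 held 2 or more. The other 1575 models held none, and 1517 of those still had bases outside every exon of the gene's models of other biotypes. They began in such sequence in 1231 cases and ended in it in 384, as a fragment that starts or stops inside an intron does. The models with a whole coding intron held 28.8% of the members' counts.

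The 1538 distinct introns held whole (distinct pairs of splice sites, as for all coding introns here) were short. Their median length was 275 bases (quartiles 124 and 627.5, range 32 to 6484), against 1149 bases (338 and 3293) for the 33581 coding introns of the same genes. Introns under 1000 bases made up 86.4% of the held introns and 46.6% of all coding introns of those genes. A long intron can be held whole only by an annotated model that long, so this contrast describes the annotation together with these cells.

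**Figure D1:**
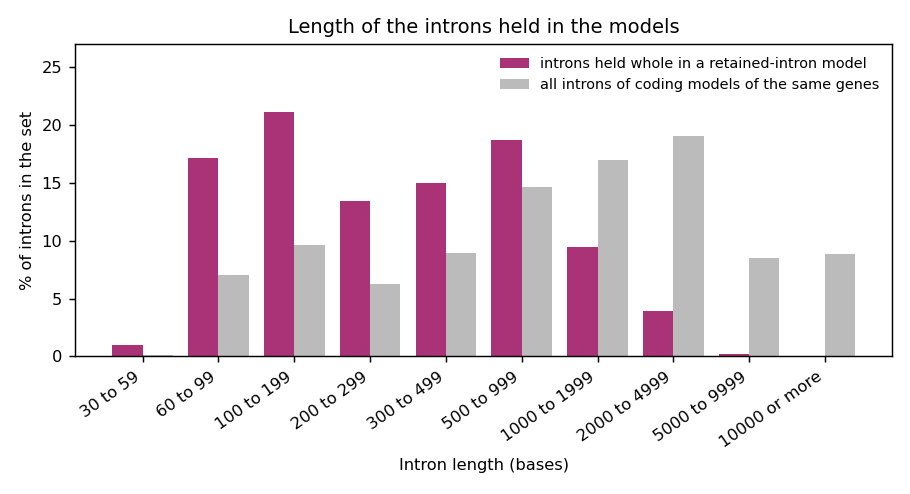
Length of introns (bases, in bins) against the percent of each set. Magenta bars are the 1538 introns held whole in a retained-intron model and grey bars are the 33581 introns of coding models of the same genes. Alternative splice sites of an intron are counted separately in both. The magenta bars are the taller ones in every bin below 1000 bases, and the grey bars in every bin from 1000 bases on.

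Nearly all these introns had the usual splice site letters: 96.7% began with GT and ended with AG, 20 were GC-AG and 3 were AT-AC. The ends of introns inside the models that the results turn on are shown so that the sequence behind a share can be seen. Each 5′ end has 3 exon and 10 intron bases and each 3′ end has 20 intron and 3 exon bases, in the direction of the gene, read from GRCh38, with the first and last 2 intron bases in capitals.
SRSF3-205 (chr6:36601191-36601707, plus strand), 5′ end: cagGTaaatgact
SRSF3-205, the same intron, 3′ end: atgtttttttgcttgtttAGgtc
SRSF3-205 (chr6:36601795-36601961, plus strand), 5′ end: tagGTaagatctt
SRSF3-205, the same intron, 3′ end: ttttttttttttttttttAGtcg
ERAL1-204 (chr17:28858208-28858373, plus strand), 5′ end: ttgGTtaggttca
ERAL1-204, the same intron, 3′ end: cctgccttgccatcttctAGttg
FOXM1-206 (chr12:2864496-2864682, minus strand), 5′ end: cacGTtagtatgg
FOXM1-206, the same intron, 3′ end: tctctcgtgtttcctcctAGggc
SNX2-206 (chr5:122827460-122827574, plus strand), 5′ end: gagGCatgtataa
SNX2-206, the same intron, 3′ end: tttaaaatgtacttcaacAGaaa
MRPL17-202 (chr11:6682816-6683122, minus strand), 5′ end: aagGTgaggagcg
MRPL17-202, the same intron, 3′ end: gtgatgttatgtcctcacAGctc
CIAO1-201 (chr2:96268659-96269267, plus strand), 5′ end: aagGTgaggtcca
CIAO1-201, the same intron, 3′ end: aagagaagtctgtcttgcAGggg
VPS4A-204 (chr16:69321271-69322559, plus strand), 5′ end: aagGTgagtgccc
VPS4A-204, the same intron, 3′ end: tcagatccatttggtttcAGgtc
OGT-210 (chrX:71544636-71547906, plus strand), 5′ end: aagGTaggtgttt
OGT-210, the same intron, 3′ end: tttcattaacccctcctaAGgca
The SNX2 intron is one of the GC-AG introns. The shorter SRSF3 intron ends in an unbroken run of T before its AG.

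How firmly a share is known depends on how much of a model's sequence is its own. Kallisto, which made the counts per the submitters' processing notes, assigns reads through short words of sequence shared among transcripts. With its default word of 31 bases, a setting not given in the sources used here, 445 of the 2484 models had no word that no other transcript holds, and these carried 14.7% of the members' counts. Another 541 had up to 10% of their words to themselves (33.8% of the counts), 1250 had 10 to 50% (45.9%) and 248 had more than 50% (5.62%). The median model had 15.2% of its words to itself. The median was 199.5 bases outside the exons of the gene's models of other biotypes. Other retained-intron models can share such bases: DDX39B-215 had 2429 of them and no word of its own.

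The members ranged from traces to most or all of a gene's estimated counts, which are not corrected for length. The median model was 1078 bases long, against 2517.5 bases for protein-coding models at the same minimum, and had a mean of 50.6 counts (quartiles 29.7 and 115). It held 7.19% of its gene's counts (quartiles 3.04% and 17.2%). A total of 146 models held more than 50% of their gene's counts, 4 held 100% and 199 held under 1%. Gaps were common, since 457 models were at 0 in at least 1 library, and 1250 averaged under 50 counts. The 10 most abundant held 22.6% of the members' counts.

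Library totals ran from 9207196 to 18047859 estimated counts. The SMARCA4 gene stood at 245 ± 11.9 CPM in nuclease-NT, 233 ± 11.6 in nuclease-SMARCA4, 251 ± 18.7 in YTHDF2-NT and 228 ± 18.7 in YTHDF2-SMARCA4 (SD, n = 3), so the targeted transcript overlapped between guides with both effectors. YTHDF2 counts averaged 6350 and 5729 CPM with the YTHDF2 effector and 272 and 238 CPM with the nuclease, which separates the effector labels. The 3 YTHDF2-NT libraries differed most among themselves. Their pairwise gene counts differed by 15.8 to 47.2 times the sampling noise (chi-square per degree of freedom), against 3.79 to 7.06 in the other groups. YTHDF2-NT library 1 had 31.5% of its counts on targets under 1000 bases and 15.5% on ribosomal protein genes, against 24.5 to 27.5% and 10.8 to 14.1% elsewhere. The members were affected too. Among the 153 members with at least 500 counts, YTHDF2-NT library 1 had the highest share in 74 (48.4%) and YTHDF2-NT library 2 the lowest in 47 (30.7%). Over all 2510 members whose share varied, library 1 was the highest in 685 (27.3%). Among 4422 protein-coding models with at least 500 counts, it had the highest share in 22.6% and the lowest in 21.9%. What part these libraries play in a result below was not tested beyond leaving each one out.

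The members took a small part of each library, and neither the guide nor the effector moved that share beyond the spread of the libraries. The members held 3.20, 3.31 and 3.25% of the counts in nuclease-NT, with 3.17, 3.34 and 3.18% in nuclease-SMARCA4. They held 3.97, 2.94 and 3.45% in YTHDF2-NT, against 3.24, 3.14 and 3.32% in YTHDF2-SMARCA4. The highest and the lowest of the 12 were therefore both YTHDF2-NT libraries, and every pair of groups overlapped. The means were 3.25 ± 0.052, 3.23 ± 0.092, 3.45 ± 0.513 and 3.23 ± 0.088% (SD, n = 3). The exact two-sided permutation p was 0.8 for the guide with the nuclease, 0.6 for the guide with YTHDF2, 0.7 for the effector with NT and 1 for the effector with SMARCA4, where 0.1 is the smallest possible. Adjusted over these 4 comparisons, each p was 1. As a percent of the counts of their own genes, the members held 10.6 ± 0.223, 10.3 ± 0.207, 11.2 ± 1.22 and 10.6 ± 0.254% in the same order. NMD models held 3.77 to 4.003% of each library and varied less from library to library.

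**Figure D2:**
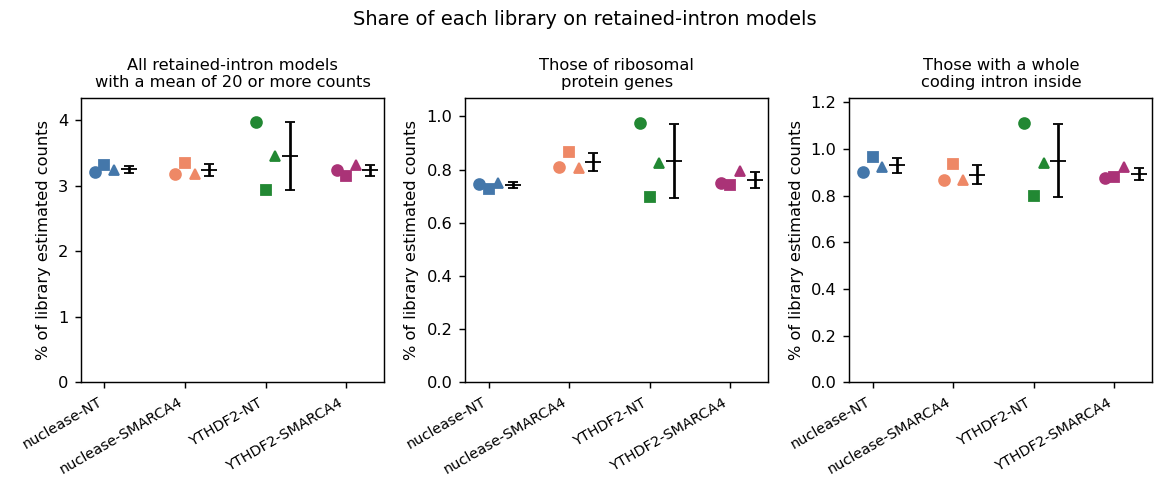
Percent of a library's estimated counts on retained-intron models (y axis) in the 4 groups, for all 2514 models, those of ribosomal protein genes and those with a whole coding intron inside. Circles, squares and triangles are libraries 1, 2 and 3 and the black bars are mean ± SD (n = 3); in the left panel YTHDF2-NT spreads from 2.94 to 3.97% while the other 9 libraries lie between 3.14 and 3.34%.

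The models with a whole coding intron behaved alike, at 0.930, 0.889, 0.950 and 0.892% of the library on average. Retained-intron models of ribosomal protein genes were the exception in one respect. They held 0.742 ± 0.0121% of the library in nuclease-NT, with 0.828 ± 0.033% in nuclease-SMARCA4 (SD, n = 3). The libraries of those groups did not overlap, and the exact permutation p was 0.1, the smallest possible, and 0.2 adjusted over the 4 comparisons. In YTHDF2-SMARCA4 they held 0.761 ± 0.0288%, again below nuclease-SMARCA4 without overlap (exact permutation p = 0.1), a comparison that shares the nuclease-SMARCA4 libraries with the first. The counts of the ribosomal protein genes moved with them. As a percent of the counts of all ribosomal protein genes the same models held 6.34% in nuclease-NT, 6.18% in nuclease-SMARCA4, 6.39% in YTHDF2-NT and 6.35% in YTHDF2-SMARCA4. On this scale YTHDF2-SMARCA4 lay above nuclease-SMARCA4 without overlap, the opposite direction to the percent of the library (exact permutation p = 0.1, 0.4 adjusted over the 4 comparisons). The nuclease groups overlapped on it (exact permutation p = 0.2).

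The most abundant members were mainly models of ribosomal protein genes, and their shares ranged from steady to variable. RPL4-203, of a protein of the large ribosomal subunit, averaged 26371 counts. It held 56.3, 57.1 and 56.2% of RPL4 in nuclease-NT, 56.1, 57.8 and 57.0% in nuclease-SMARCA4, 55.9, 55.9 and 57.6% in YTHDF2-NT and then 57.8, 56.8 and 57.5% in YTHDF2-SMARCA4. The groups overlapped throughout. Only 27 of its 1366 words were its own, and how many of its reads can be told from those of other models was not tested. RPS23-203, of the small subunit, averaged 17529 counts and 86.9% of its gene, with a lowest library of 81.9% and a highest of 89.1%. RPL14-208 (10808 counts, 54.0%), RPL26-202 (6841 counts, 30.2%) and RPL37A-201 (4808 counts, 24.1%) are also of the large subunit. RPL37A-201 ranged from 20.8 to 27.5%, both ends being nuclease-NT libraries. It had no word of its own, and RPL14-208 had 11 of 764. ACTG1-212, of cytoplasmic gamma-actin, averaged 8188 counts and 24.2%, and it ranged from 17.3 to 31.9%, both ends being YTHDF2-NT libraries. Only 5 of its 1668 words were its own. MCM7-210, of a subunit of the replicative helicase, averaged 5530 counts and 73.0%, with 1 word of 2485 its own. OAZ1-208, of ornithine decarboxylase antizyme, averaged 4928 counts and 48.4% and had no word of its own. RPL8-204 averaged 4369 counts and 13.7% of its gene, with a highest library of 16.6%, but 7.01% in nuclease-SMARCA4 library 1 and 9.98% in YTHDF2-SMARCA4 library 1. None of these models passed the share test in any comparison.

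The better-determined shares come from models that hold a whole coding intron and have at least 25% of their words to themselves. There were 315 of them, 48 with at least 100 counts, and together they held 6.63% of the members' counts. The 12 with the most counts, chosen after their values were seen, are described here. MRPL17-202, of a mitochondrial ribosomal protein, held most of its gene's estimated counts. Its share was 59.3, 60.9 and 59.2% in nuclease-NT, 57.7, 59.8 and 62.9% in nuclease-SMARCA4, 65.9, 61.6 and 64.0% in YTHDF2-NT and then 62.2, 62.8 and 60.7% in YTHDF2-SMARCA4. The nuclease groups overlapped, and so did the YTHDF2 groups. With the NT guide, every YTHDF2 library was above every nuclease library, and the model was not called there (edgeR adjusted p = 1). CIAO1-201, of a factor of cytosolic iron-sulfur cluster assembly, ranged from 51.2 to 62.2% with a median of 55.1%. VPS4A-204, of the ATPase that recycles ESCRT-III, ranged from 43.1 to 71.3% with a median of 52.6%, and its highest value was YTHDF2-NT library 1.

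TRMT112-204, of the partner protein of several methyltransferases, held 44.2, 47.8 and 45.2% in nuclease-NT, with 44.8, 41.8 and 40.5% in nuclease-SMARCA4. It held 41.3, 46.9 and 45.7% in YTHDF2-NT, against 48.2, 41.6 and 51.8% in YTHDF2-SMARCA4, so that both pairs of guide groups overlapped. HSPE1-204, of the mitochondrial co-chaperonin HSP10, had a median of 22.6% (19.6 to 30.5%). ATP2A2-202, of the calcium pump SERCA2, had a median of 18.1% (16.0 to 20.7%). The ribosomal protein models RPL36A-205 and RPL35-203 had medians of 15.8% (13.9 to 18.5%) and 10.7% (8.83 to 11.2%), and RPL6-212 had 3.51% (3.33 to 4.46%). PDIA3-206, of an endoplasmic reticulum disulfide isomerase, had a median of 8.14%. It reached 21.0% in YTHDF2-NT library 1 and 4.87% in library 2 of that group. FKBP4-205, of an HSP90 co-chaperone, had a median of 6.95% (5.28 to 9.09%). Of the 12, SRSF3-205 was the only one called in any comparison.

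**Figure D3:**
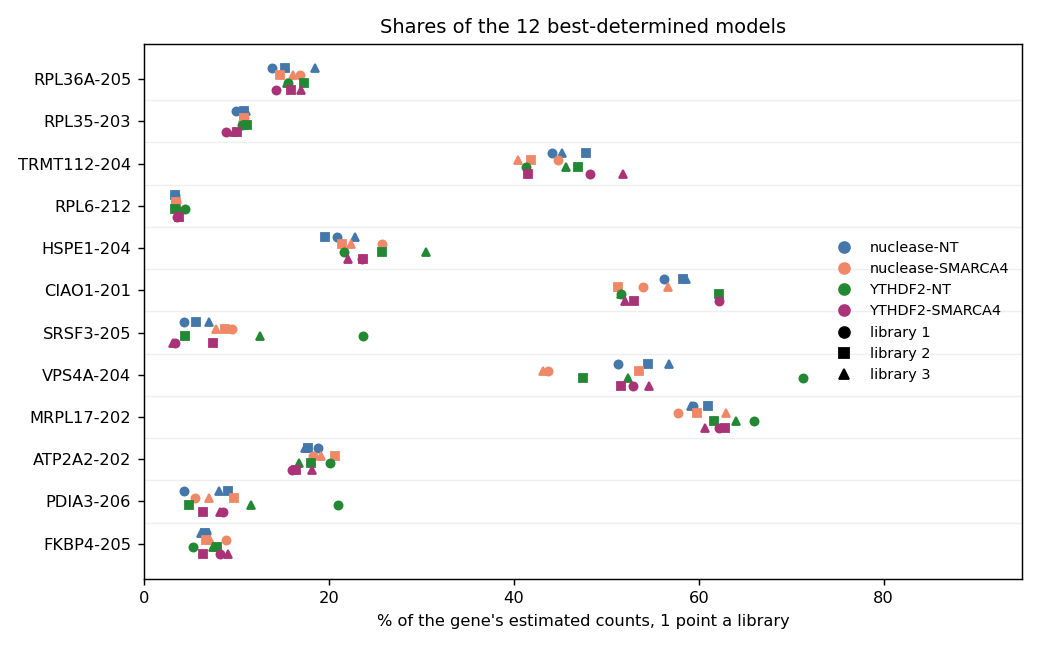
Percent of the gene's estimated counts (x axis) on each of the 12 best-determined models (rows), 1 point a library, coloured by group, with circles, squares and triangles for libraries 1, 2 and 3. MRPL17-202 stays between 57.7 and 65.9%, while the YTHDF2-NT circle stands far to the right for SRSF3-205 (23.7%), VPS4A-204 (71.3%) and PDIA3-206 (21.0%).

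Model by model, few shares changed by the share test, and they were mostly models at or near 0 in one group. Among the models called, HARS-211, CBX3-206 and NPM1-212 held no whole coding intron, so their shares do not follow a whole retained intron. The test compared each model's change with that of its gene (edgeR's diffSpliceDGE on a quasi-likelihood fit, Benjamini-Hochberg adjusted p below 0.05 over 44039 transcripts). It pools the spread over all transcripts of a gene. Whether this makes it permissive for a model that is switched between libraries was not tested. When it was tried on simulated counts, most of its calls were of unchanged transcripts, and it recovered few of the transcripts that had been changed. The other tests of the share made fewer wrong calls there and recovered about as few. Of 2482 members tested, 3 were called for the guide with the nuclease, where 0.0295% of all transcripts were called. For the guide with YTHDF2, 3 were called (0.0545% of all), and for the difference of the guide effects, 4 (0.154%). For the effector, 2 were called with NT (0.0454%) and 2 with SMARCA4 (0.0659%). With each transcript's own spread, edgeR called 0 members in all 5 comparisons, with 75, 78, 85, 85 and 59 members at an unadjusted p below 0.05. Over all transcripts that test called 0.0, 0.00454, 0.00681, 0.0114 and 0.0204%. Limma on the log2 ratio called 0, 0, 0, 1 and 0 members, with 110, 103, 108, 123 and 92 unadjusted, and 0.0204, 0.0159, 0.00908, 0.0409 and 0.0227% of all transcripts. The guide comparison with the nuclease and the effector comparison with SMARCA4 share the nuclease-SMARCA4 libraries, and the other comparisons share libraries in the same way.

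ERAL1-204 was the clearest of the called models. ERAL1 is a GTPase that assists assembly of the small mitochondrial ribosomal subunit, and the model (chr17:28858038-28861009, plus strand) holds an intron of 166 bases. Its share was at most 0.0278% in all 3 nuclease-NT libraries and 7.27, 2.43 and 8.14% in nuclease-SMARCA4. It was 24.3, 2.94 and 11.2% in YTHDF2-NT, against 15.5, 4.08 and 2.82% in YTHDF2-SMARCA4. Nuclease-NT lay below every library of the other groups. A count of 0 allows up to 0.234 to 0.344% in those nuclease-NT libraries (3 counts, counting error only). Against the mean of these limits, the mean share was 21.2-fold higher in nuclease-SMARCA4 and 45.7-fold higher in YTHDF2-NT. The lowest library of each group was 8.65-fold and 10.4-fold higher. These folds leave out the spread of the higher group. Of the model's 1478 words, 195 were its own. The adjusted p (edgeR) was 0.000702 for the guide with the nuclease and 2.0e-05 for the effector with NT. Limma gave an adjusted p of 0.102 and 0.0287, and edgeR with the model's own spread gave 1 and 0.468, so that neither comparison was called by that test. ERAL1-203, the gene's NMD model, averaged 52.9% in nuclease-NT, 43.7% in nuclease-SMARCA4 and 34.97% in YTHDF2-NT, the opposite order. Summed over all retained-intron models of ERAL1 the share was 19.1 ± 1.24, 23.0 ± 1.78, 25.9 ± 5.61 and 26.0 ± 10.6% (SD, n = 3), which was not called.

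Other models were near 0 in one nuclease group only. SNX2-206, of a sorting nexin of the retromer, was at 0 in all 3 nuclease-NT libraries. It held 3.996, 1.33 and 0.882% in nuclease-SMARCA4, 1.32, 4.07 and 1.92% in YTHDF2-NT and then 1.80, 0.421 and 2.18% in YTHDF2-SMARCA4. It was called for the effector with NT (adjusted p = 0.0401 by edgeR, 0.0618 by limma). Against the same kind of limit, its mean share was 12.9-fold higher in YTHDF2-NT, and the lowest library there 6.94-fold higher. HARS-211, of cytosolic histidyl-tRNA synthetase, held 3.86, 2.57 and 6.04% in nuclease-NT and was at or near 0 in all of nuclease-SMARCA4. It held 4.41, 0.795 and 8.46% in YTHDF2-NT, against 2.46, 2.10 and 0.431% in YTHDF2-SMARCA4. It was called for the guide with the nuclease (adjusted p = 0.0186 by edgeR, 0.127 by limma). The mean share in nuclease-NT was 16.9-fold above the limit for nuclease-SMARCA4, and its lowest library 10.4-fold above.

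CBX3-206, of the heterochromatin protein HP1 gamma, held 2.16, 0 and 3.95% in nuclease-NT and close to 0 in all of nuclease-SMARCA4. It held 0, 1.59 and 0.00162% in YTHDF2-NT, against 0.942, 2.55 and 0% in YTHDF2-SMARCA4. It was called for the guide with the nuclease (edgeR adjusted p = 0.0236) and for the effector with SMARCA4 (0.0440), although it was also at or near 0 in 1 library of nuclease-NT, 2 of YTHDF2-NT and 1 of YTHDF2-SMARCA4. EIF1-205, of the initiation factor that guards start codon choice, held 0.950, 0.141 and about 0% in YTHDF2-SMARCA4 and 0 in all of nuclease-SMARCA4. It was called for the effector with SMARCA4 (edgeR adjusted p = 0.0238), and it had no word of its own.

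The models called for the guide with YTHDF2 rested on YTHDF2-NT library 1. FOXM1-206, of a transcription factor of mitotic genes, held 29.3, 0.654 and 0.272% in YTHDF2-NT and 0 in all of YTHDF2-SMARCA4. It held 3.27, 3.31 and 2.24% in nuclease-NT, with 0, 5.46 and 0% in nuclease-SMARCA4. The adjusted p was 0.00959 (edgeR), and of its counts 507 came from YTHDF2-NT library 1 alone. NPM1-212, of the nucleolar protein nucleophosmin, held 4.06, 0.0358 and 0.0607% in YTHDF2-NT, against 0.0489, 0.0329 and 0.0867% in YTHDF2-SMARCA4. The groups overlapped, the adjusted p was 0.00959 (edgeR), and without YTHDF2-NT library 1 the fitted difference turned from -4.66 to 0.23 (log2). Without that library the 3 calls for the guide with YTHDF2 were lost in edgeR, and without YTHDF2-NT library 2 the count was 16.

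SRSF3-205 was the best-covered called model, at 735 counts. SRSF3 is the smallest of the SR proteins and regulates its own splicing. The model is a single exon of 2376 bases that runs through introns of 517 and 167 bases. Its share was 4.30, 5.65 and 7.05% in nuclease-NT, 9.56, 8.74 and 7.75% in nuclease-SMARCA4, 23.7, 4.399 and 12.5% in YTHDF2-NT and then 3.35, 7.50 and 3.19% in YTHDF2-SMARCA4. With the nuclease every SMARCA4-guide library was above every NT library, and with YTHDF2 the groups overlapped. The log2 change with YTHDF2 was -1.58 ± 0.34 (SE, edgeR adjusted p = 0.0393), and the difference of the guide effects was -2.19 ± 0.47 (edgeR adjusted p = 0.0327). SRSF3-207, another retained-intron model of the gene, held 14.2, 28.8 and 24.8% in YTHDF2-NT, against 34.0, 26.6 and 31.8% in YTHDF2-SMARCA4, and its lowest library was the one in which SRSF3-205 was highest. All retained-intron models of SRSF3 together held 32.5, 33.5, 36.1 and 35.5% of the gene on average, and the sum was not called.

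**Figure D4:**
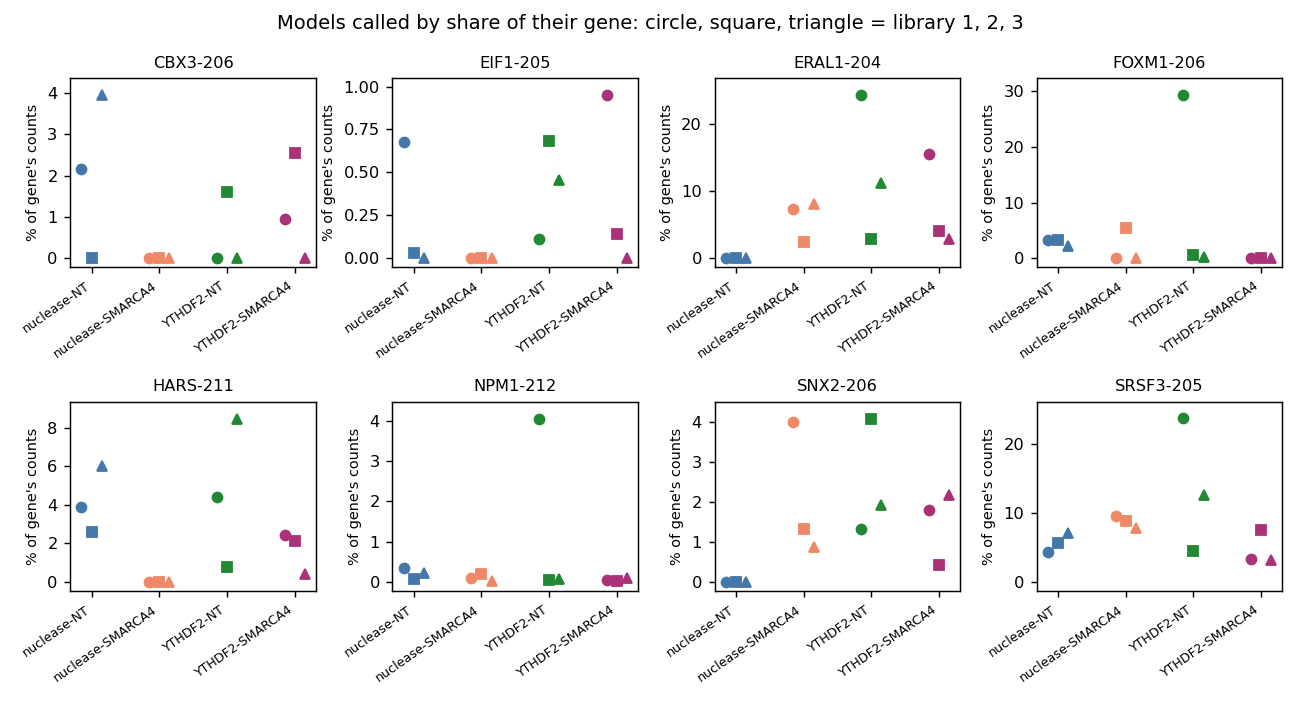
Percent of the gene's estimated counts (y axis, own scale in each panel) on the 8 models called by the share test in at least 1 comparison, in the 4 groups (x axis), with circles, squares and triangles for libraries 1, 2 and 3. ERAL1-204 and SNX2-206 are at or near 0 in all nuclease-NT libraries, HARS-211 in all nuclease-SMARCA4 libraries, and the FOXM1-206 and NPM1-212 points that stand out are YTHDF2-NT library 1.

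Some members among the 10 with the smallest p in a comparison were at or near 0 in a whole group without being called, and 4 of these, chosen after their values were seen, are described here. For the guide with the nuclease, EIF1-205 (edgeR adjusted p = 0.0517), SNX2-206, MTO1-203 and NASP-209 (0.0615 each) came before them in order of p. RPL4-205 and RAN-204 (edgeR adjusted p = 0.172 and 0.0971 for the effector with NT) were among the smallest too and were above 0 in every library. RAN-204, of the GTPase of nuclear transport, held 0.233, 0.115 and 0.596% in nuclease-NT, with 0.0186, 2.85 and 4.60% in YTHDF2-NT. PTCD3-208, of a protein of the small mitochondrial ribosomal subunit, was at 0 in all 3 YTHDF2-NT libraries and held 3.73, 3.62 and 3.07% in YTHDF2-SMARCA4. It held 1.71, 2.21 and 2.40% in nuclease-NT, and it had no word of its own (edgeR adjusted p = 0.0803 for the guide with YTHDF2). CALCOCO2-224, of the autophagy receptor NDP52, was at 0 in all of nuclease-NT and held 5.18, 4.39 and 1.95% in nuclease-SMARCA4 (edgeR adjusted p = 0.235 for the guide with the nuclease). It too had no word of its own. C12orf10-206 was at 0 in all of nuclease-SMARCA4 and held 6.99, 9.92 and 1.23% in nuclease-NT (edgeR adjusted p = 0.219). USP5-204, of a deubiquitinase, held 24.0, 0 and 1.86% in YTHDF2-NT and was at or near 0 in YTHDF2-SMARCA4, so that its groups overlapped.

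Without a test, the number of models whose libraries did not overlap was close to that of other transcripts. With the nuclease, 324 of 2482 members (13.1%) did not overlap between guides, 113 higher and 211 lower with SMARCA4, against 11.7% of all transcripts at the same minimum. Members were lower in 8.50% and higher in 4.55%, where all transcripts were lower in 6.02% and higher in 5.69%. With YTHDF2, 230 (9.27%) did not overlap between guides, against 9.96% of all transcripts. Of these, 134 were higher (5.399%, against 5.18% of all) and 96 lower (3.87%, against 4.77%). Between effectors with NT, 231 did not overlap (9.31%, against 9.92% of all). With YTHDF2, 113 of them were higher (4.55%, against 4.72%) and 118 lower (4.75%, against 5.2%). Between effectors with SMARCA4, 312 did not overlap (12.6%, against 11.6% of all). With YTHDF2, 214 of them were higher (8.62%, against 5.96%) and 98 lower (3.95%, against 5.66%), and these share the nuclease-SMARCA4 libraries with the first of the counts. The median log2 share change of the members was small in every comparison: -0.050 for the guide with the nuclease, -0.035 with YTHDF2, 0.051 for the effector with NT and 0.060 with SMARCA4. Over all transcripts the same medians were -0.007, 0.005, -0.004 and 0.011.

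By level rather than share, 0 members were called by edgeR in any of the 5 comparisons, with 108, 85, 114, 116 and 84 at an unadjusted p below 0.05. These were 4.30, 3.39, 4.54, 4.62 and 3.35% of members, against 4.72, 4.33, 5.11, 5.17 and 4.44% of all transcripts. Over all 49518 transcripts tested, 0.00202, 0.00606, 0.00606, 0.00404 and 0.00808% were called. DESeq2 called 22, 9, 19, 19 and 13 of 2504 members (0.879, 0.359, 0.759, 0.759 and 0.519%), where it called 0.969, 0.629, 0.846, 0.946 and 0.768% of all 48932 transcripts. In each comparison the members' share was below that of all transcripts.

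Adding up the retained-intron models of each gene removes the trade between them. A total of 2286 genes had a sum to follow, with a median share of 11.0%, and 207 genes had more than 50% of their counts on such models. Of the 2243 genes tested with edgeR, with each sum's own spread, 0 were called in all 5 comparisons. At an unadjusted p below 0.05 there were 100, 114, 110, 119 and 82. Over all 16766 sums of a gene's models by biotype, the same test called only 0, 0, 0, 2 and 2. The smallest p for the guide with YTHDF2 was that of RBM25, a spliceosome-associated protein of nuclear speckles. Its sum was 9.55 ± 3.19% in YTHDF2-NT and then 14.3 ± 1.69% in YTHDF2-SMARCA4, beside 12.7 ± 0.885 and 13.6 ± 1.07% with the nuclease (SD, n = 3). It was not called (unadjusted p = 0.000452, adjusted p = 1, both from edgeR).

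SMARCA4 itself has 2 members. SMARCA4-219 averaged 1099 counts and 34.3% of the gene. It held 35.5, 37.6 and 34.9% in nuclease-NT, 37.3, 32.9 and 36.4% in nuclease-SMARCA4, 25.3, 33.2 and 34.3% in YTHDF2-NT and then 38.2, 35.1 and 33.5% in YTHDF2-SMARCA4. The guide groups overlapped with both effectors, and the log2 changes were -0.03 ± 0.38 and 0.23 ± 0.38 (SE, edgeR adjusted p = 1 for both). SMARCA4-216 averaged 23.5 counts and held 0.527 to 1.04%. YTHDF2 has no retained-intron model in the tables.

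Genes known for detained introns were thinly covered. OGT, which adds N-acetylglucosamine to proteins and adjusts the splicing of its own detained intron, had 1 member, OGT-210, at 66.2 counts. It held 6.37, 8.22 and 6.78% in nuclease-NT, with 5.97, 4.10 and 4.97% in nuclease-SMARCA4, without overlap. With YTHDF2 it held 4.97, 7.89 and 5.91% with NT and 5.72, 9.15 and 3.44% with SMARCA4. The change with the nuclease was -0.51 ± 0.54 on the log2 scale (SE, edgeR adjusted p = 1). CLK1, a kinase of SR proteins, had CLK1-210 at 21.7 counts, between 0 and 8.11% of the gene. No model of MAT2A, the S-adenosylmethionine synthetase, or of CLK4 reached the minimum (highest means 14.6 and 5.06 counts).

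Among splicing regulators, retained-intron models took 5.17 to 15.1% of the counts of their genes. The 17 members of 9 SR protein genes held 15.1% of those genes' counts. Their median log2 share change was -0.190 for the guide with the nuclease (5 of 17 positive) and 0.103 with YTHDF2 (12 of 17 positive), and SRSF3-205 was the only one called. Of all members tested, 43.3 and 46.5% were positive in these comparisons. SRSF2-206 held 28.1, 26.3 and 23.1% in nuclease-NT, 20.6, 17.3 and 23.9% in nuclease-SMARCA4, 38.0, 18.7 and 27.6% in YTHDF2-NT and then 21.5, 20.8 and 22.8% in YTHDF2-SMARCA4. The 33 members of 14 hnRNP and related genes held 5.17% of their genes, the 32 of 19 core spliceosome genes 13.6%, and the 21 of 11 CLK, cyclin L and speckle genes 8.67%. None of these was called in any comparison. The CLK, cyclin L and speckle members held 7.53 ± 0.375% of their genes in nuclease-NT and 9.46 ± 0.480% in nuclease-SMARCA4. They held 9.51 ± 2.86% in YTHDF2-NT and 8.17 ± 1.58% in YTHDF2-SMARCA4 (SD, n = 3). The differences of this summed share were not tested. DDX39B-215, of an RNA helicase of spliceosome assembly, held 9.54, 13.1 and 9.66% in nuclease-NT, with 7.81, 6.57 and 7.27% in nuclease-SMARCA4, without overlap (edgeR adjusted p = 1). It had no word of its own. RBM39-221, of an SR-related splicing factor, had none either and swung from 0.000926 to 33.8% between libraries. SNRNP200-208, of the helicase that unwinds U4 from U6, also had none of its own and read 67.9, 29.5 and 52.1% in the libraries of YTHDF2-NT.

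Of 21 measured genes that host small nucleolar RNAs (snoRNAs) in their introns, 7 had a member. The 23 members held 32.5% of the counts of those 7 genes, and none was called. SNHG3-201 held 75.1, 69.8 and 69.1% in nuclease-NT, 79.5, 78.4 and 81.2% in nuclease-SMARCA4, 82.0, 67.7 and 75.5% in YTHDF2-NT and then 76.1, 68.2 and 75.7% in YTHDF2-SMARCA4. The nuclease groups did not overlap, but the change of 0.16 ± 0.18 on the log2 scale was not called (SE, edgeR adjusted p = 1). DANCR-202 held between 74.9 and 92.2% of its gene. All counts of SNHG3 lay on models with the retained-intron label in every library. Of the 2171 words of SNHG3-201, 1255 (57.8%) were its own. DANCR-202 had 43 bases outside the exons of the gene's models of other biotypes. A high share in DANCR need not be intron sequence.

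The 6 members of 4 m6A genes held 33.7% of their genes, and none was called. ALKBH5-202, of an m6A demethylase, held 48.0, 45.8 and 51.4% in nuclease-NT, 47.4, 50.5 and 48.4% in nuclease-SMARCA4, 71.8, 48.6 and 56.3% in YTHDF2-NT and then 47.6, 48.3 and 57.1% in YTHDF2-SMARCA4. METTL3-212, of the m6A methyltransferase, held 14.7, 17.3 and 36.8%, then 4.27, 11.8 and 24.3%, then 41.9, 20.4 and 33.9%, then 15.7, 14.8 and 21.6% in the same order. The mean over the list was 31.4% in nuclease-NT, 31.9% in nuclease-SMARCA4, 40.3 ± 12.2% in YTHDF2-NT and 31.6% in YTHDF2-SMARCA4 (SD, n = 3), and the groups with YTHDF2 overlapped.

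The 30 members of 19 NMD and RNA decay genes held 11.0% of their genes, with none called. CNOT1-204, of the scaffold of the deadenylase complex, held 36.1, 6.57 and 21.8% in YTHDF2-NT and between 12.95 and 20.03% in the other 9 libraries. CASC3-202, of an exon junction complex protein, held 40.6, 1.18 and 13.4% in YTHDF2-NT and between 1.34 and 3.86% elsewhere (edgeR adjusted p = 0.422 for the guide with YTHDF2). In both genes the 3 libraries of YTHDF2-NT spread wider than all the others. The 7 members of 6 BAF complex genes, which include SMARCA4, held 22.2%, and none was called.

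The 74 members of 40 ribosomal protein genes held 11.6% of the counts of those 40 genes, 11.3 to 11.9% in every library. Their median log2 share change was -0.343 for the guide with the nuclease (16 of 74 positive) and 0.036 with YTHDF2 (41 of 74 positive). For the effector with SMARCA4, which shares the nuclease-SMARCA4 libraries, it was 0.274 (54 of 74 positive), and none was called. In these comparisons 43.3, 46.5 and 58.0% of all members tested were positive, and 48.6, 50.9 and 51.8% of all transcripts. Models of 1 gene share its total, so such counts are not of independent models. The median gives each model the same weight and the summed share is carried by a few such as RPL4-203, so they differ in size: the summed share was 11.66% in nuclease-NT and 11.35% in nuclease-SMARCA4. RPL4-205, a smaller model of RPL4, held 1.14, 7.08 and 3.77% in YTHDF2-NT and between 6.06 and 7.53% in the other 9 libraries (edgeR adjusted p = 0.328 for the guide with YTHDF2). The 30 members of 18 translation factor genes held 3.72% of their genes, the 19 of 15 heat shock and chaperone genes 3.72%, the 14 of 8 glycolysis genes 4.84% and the 7 of 6 tubulin and actin genes 12.9%. Among them EIF1-205 was the only model called. LDHB-206, of a lactate dehydrogenase subunit, held 20.1, 7.79 and 10.5% in YTHDF2-NT and between 7.05 and 10.2% in the other 9 libraries.

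**Figure D5:**
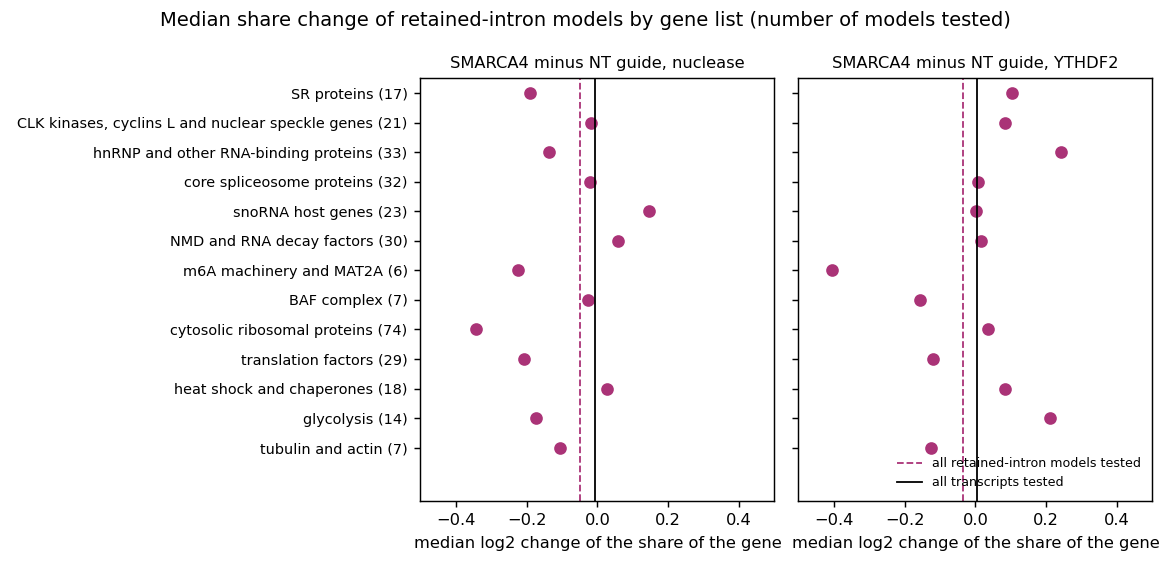
Median log2 change of the share of the gene (x axis) of the retained-intron models in each gene list (rows, number of models tested in brackets), for the SMARCA4 guide against NT with the nuclease (left) and with YTHDF2 (right). The dashed line is the median of all members tested and the black line that of all transcripts tested; ribosomal protein models lie at -0.343 on the left and 0.036 on the right, and no list had more than 1 model called in a guide comparison.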

How the data were processed

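The authors deposited 1 kallisto table per library with estimated counts, TPM, length and effective length for each of 200403 targets (200401 transcripts and 2 reporters), per the file headers. The deposited TPM values are length-normalized and keep no depth. The submitters' processing notes name kallisto, sleuth and hg38. Their versions, the annotation release, the word length and the strand setting are not given in the sources used here.

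Estimated counts were rounded. A share is a model's count over the sum of its gene ID. All 12 libraries were fitted with 1 mean per group in edgeR 4.0.16 (R 4.3.3), with TMM, filterByExpr and 8 residual degrees of freedom, and p-values were Benjamini-Hochberg adjusted over all transcripts tested. The filter passed 2511 members, of which 2482 had another tested transcript in their gene. The fits were tested on simulated data, where most calls of the main share test were of unchanged transcripts and few of the changed ones were recovered. Calls by own spread and by limma were fewer there and less often wrong. Alternatives were run with limma 3.58.1, DESeq2 1.42.0 and changed filters, and own spread, sums per gene and models with at least 25% own words were added after the data were seen. Summaries used pandas 2.3.3 and scipy 1.17.1.

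Named models were those called without overlap, the 10 of smallest p, the 10 most abundant, for each of 15 gene lists the 2 most abundant and the smallest p of each guide comparison, and those of SMARCA4, YTHDF2, OGT, CLK1, CLK4 and MAT2A. 1 model that this rule names is not reported here. Members and lists were chosen with earlier results of these data known. No pair of libraries within a group was a duplicate: each such pair differed by more than sampling noise.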

Additional observations from a re-analysis of the deposited data

Results flagged for a closer look

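The SMARCA4-guide effect on the share of the gene differed between the effectors for 4 models, by the interaction term of the edgeR fit. As fitted log2 differences (effect with YTHDF2 minus effect with the nuclease) they were -10.06 for ERAL1-204 (adjusted p = 0.00256), 10.78 for CBX3-206 (0.0310), -2.19 for SRSF3-205 (0.0327) and -9.89 for FOXM1-206 (0.0452), all adjusted p from edgeR. The values for ERAL1-204, CBX3-206 and FOXM1-206 rest on libraries at or near 0, depend on the prior count and are no bound on a fold. For SRSF3-205 the share was higher with the SMARCA4 guide in 3 of 3 nuclease libraries and overlapped with YTHDF2. With each transcript's own spread in edgeR, and with limma, 0 members were called for this difference.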

How the results depend on the processing

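The smallest number of counts, the size of the groups and the spread of YTHDF2-NT limit these results: 1250 of 2514 members average under 50 counts, and changes in a share held by few own words cannot be separated from how reads were assigned. Members called by share of the gene (3, 3, 4, 2 and 2 for the guide with the nuclease, the guide with YTHDF2, their difference, the effector with NT and the effector with SMARCA4) varied with most settings. Of members with a mean of at least 50 counts, 1 was called for the guide with the nuclease, 1 for the effector with NT and 0 for the effector with SMARCA4. Without a filter on low counts, 1 was called for the effector with NT and 4 with SMARCA4. With the 6 libraries of the comparison only, 1 was called for the effector with SMARCA4. Limma called 0, 0, 0, 1 and 0. Each transcript's own spread, and sums per gene, both in edgeR, gave 0 in all 5 comparisons (unadjusted counts are beside those results above). With a replicate block, 0 were called for the guide with YTHDF2, 1 for the difference and 0 for the effector with SMARCA4; the numbers do not pair the libraries, since same-number correlations ran from -0.146 to 0.0619 and not every library correlated best with its own number. Leaving out 1 library at a time gave 1 to 6, 0 to 16, 1 to 11, 1 to 14 and 0 to 4 calls by share. By level it gave 0 to 6 for the guide with YTHDF2, 0 to 2 for the difference, 0 to 9 for the effector with NT and 0 for the others. Without YTHDF2-NT library 2 the counts by share were 16 for the guide with YTHDF2 and 14 for the effector with NT, and by level 6 and 9. DESeq2 called 22, 9, 19, 19 and 13 members by level (0.879, 0.359, 0.759, 0.759 and 0.519%, against 0.969, 0.629, 0.846, 0.946 and 0.768% of all transcripts); the cause was not tested. The log2 ratio of the class share ran, without 1 library, from -0.033 to 0.004 and -0.198 to 0.017 for the guide and from -0.025 to 0.189 and -0.019 to 0.024 for the effector. As a percent of the members' own genes it was -0.050 for the guide with the nuclease (-0.009 of the library) and 0.045 for the effector with SMARCA4 (0.00057 of the library). NPM1-212 ran from -5.23 (without YTHDF2-NT replicate 3) to 0.23, a reversal (without YTHDF2-NT replicate 1), for the guide with YTHDF2. Most of the alternatives refit the same share test, so they are no independent support for a call. ERAL1-204 kept its call in 16 of 18 for the guide with the nuclease and 17 of 18 for the effector with NT. Own spread kept neither of these calls, and limma kept only the one for the effector with NT. SRSF3-205 kept its call in 3 of 18 for the guide with YTHDF2.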
